A study of Rattus norvegicus with 60 samples.

Results

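The miR-34 family, a group of miRs whose genes are switched on by the tumor suppressor p53, was followed in rat retina after ischemia-reperfusion (IR) injury. Its members were taken by name as rno-miR-34a, rno-miR-34b and rno-miR-34c, which are 3 of the 350 rat miRs on the array, and passenger strands (names ending in an asterisk) were left out. Of these 3 members, only rno-miR-34a was detected often enough to be among the 159 miRs that were tested. All 60 animals were male Long Evan's hooded rats, and each array held the whole retina of 1 rat. In the 30 IR rats the pressure in 1 eye was raised to 110 mmHg for 60 min under pentobarbital anesthesia and then released. Retinas were taken at once (0 h) or 2, 24 or 48 h or 7d later, with 6 rats at each time. The 30 sham control rats, also 6 at each time, had the same anesthesia, eye drops and cannula without the rise in pressure. RNA integrity numbers were high in all samples per the labels.

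The p53 protein is a transcription factor that cells stabilize after DNA damage, loss of oxygen and other stress, and it binds to and activates the genes of the miR-34 family. A mature miR is loaded into an Argonaute protein and pairs through its seed, the bases near its 5′ end, with sites in messenger RNAs, which are then repressed. Known targets of miR-34 include mRNAs for cell cycle and survival proteins such as Cdk6, Met, Bcl2 and the deacetylase Sirt1, so the family is studied as a link between p53 and cell cycle arrest or cell death. miR-34a is made from its own gene in most tissues, brain included, whereas miR-34b and miR-34c are cut from 1 shared transcript that is most abundant in lung, testis and other tissues with ciliated cells.

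The mature sequences of the members and of their relative on the array show what the arrays could tell apart. They were taken from RefSeq (rat build GRCr8) and are written 5′ to 3′, with the seed (bases 2 to 8) in capitals.
rno-miR-34a: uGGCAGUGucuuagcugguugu
rno-miR-34b: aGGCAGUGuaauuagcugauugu
rno-miR-34c: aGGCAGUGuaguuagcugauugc
rno-miR-449a: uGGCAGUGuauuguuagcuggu
The seed is identical in all of them. Of the 724 mature rat miRs in the RefSeq table, 5 carry this seed, and 4 of these 5 were on the array. Counted base by base from the 5′ end without gaps, rno-miR-34b and rno-miR-34c differed at only 2 of 23 bases (A11G and U23C, with the base of rno-miR-34b first). rno-miR-34a differed from each of them at 11 of 22 bases. Whether the probes of rno-miR-34b also took up rno-miR-34c was not tested. The hairpin of rno-miR-34a, Mir34a, lies on the plus strand at chr5:165815952-165816053. The hairpins Mir34c (chr8:60306091-60306167) and Mir34b (chr8:60306609-60306692) lie on the minus strand, 441 bases apart. The array annotation, which uses the older build rn4, placed the longer probe of rno-miR-34a at chr5:167187918-167187937, that of rno-miR-34b at chr8:54422619-54422639 and that of rno-miR-34c at chr8:54422094-54422113. Each member had 2 probes with 10 spots each.

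The arrays gave for each miR a total signal, which is the background-corrected fluorescence summed over its probes, and a call of whether the miR was detected. Between 59 and 180 of the 350 miRs were detected on the IR arrays, and between 113 and 232 on the sham control arrays. The arrays themselves differed in brightness. Brightness was read as the 75th percentile of the 57 miRs that every array detected. The sham control arrays were on average 2.09-fold brighter than the IR arrays at 0 h, 0.976-fold as bright at 2 h, and 4.44-fold, 2.29-fold and 5.98-fold brighter from 24 h to 7d. Signals were therefore divided by this percentile, and the log2 values below are on that scale. The arrays filled 9 slides and 3 scan days. IR and sham control were balanced within each scan, but no slide held both treatments of the same time point, so that slide and treatment cannot be told apart within any single slide. In whole retina, fewer cells of a type and less RNA per cell cannot be told apart.

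rno-miR-34a, the family member that is found in most tissues, was detected on all 60 arrays, whereas the other members were detected on very few. Before scaling, its total signal lay between 24.3 and 343 signal units. At 24 h it was 36.2 to 87.9 units on the IR arrays (median 63.6) and 152 to 242 units on the sham control arrays (median 207), so every IR array lay below every sham control array (81.1% of tested miRs did not overlap on this scale). At 7d it was 24.3 to 53.8 units on the IR arrays (median 48.3) against 219 to 326 units on the sham control arrays (median 242), again without overlap (95.6% of tested miRs). At 2 h the medians of 175 units (IR) and 157 units (sham control) were close. These differences followed the brightness of the arrays as a whole.

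**Figure D1:**
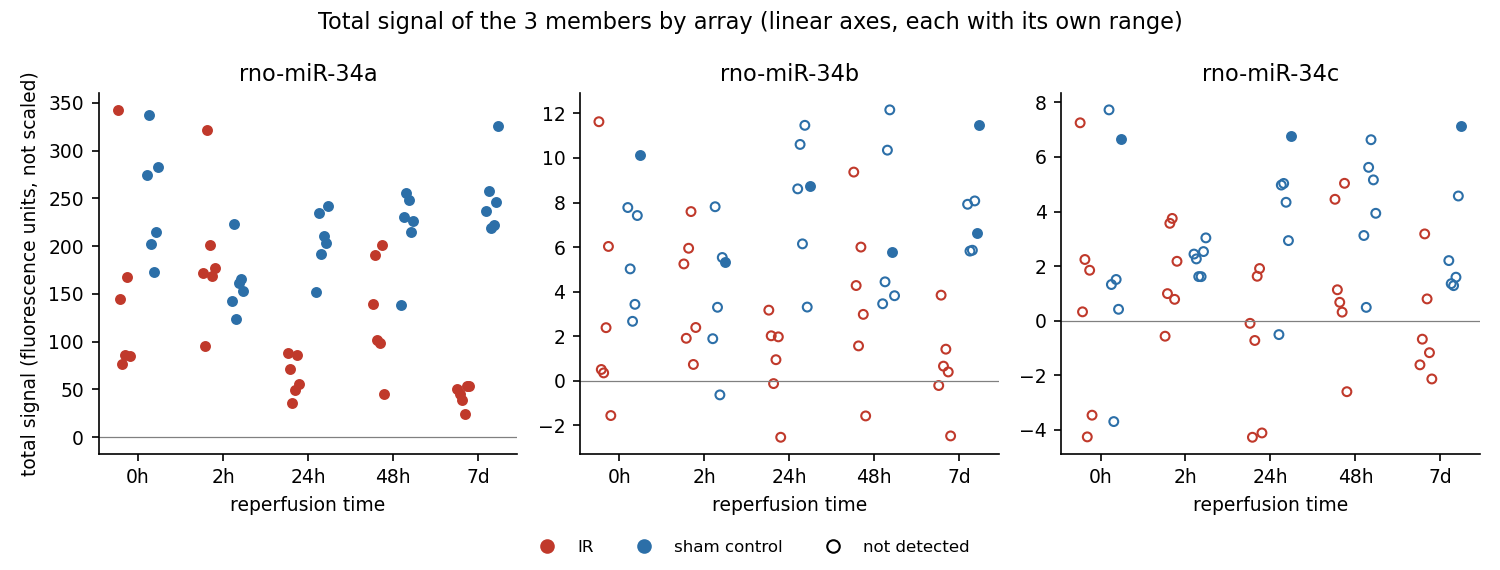
Total signal of rno-miR-34a, rno-miR-34b and rno-miR-34c in fluorescence units on a linear axis, not scaled between arrays, by reperfusion time. Each point is 1 array (6 per group), red for IR and blue for sham control. Open points are arrays on which the miR was not detected: none of 60 for rno-miR-34a, and all but 6 and all but 3 for rno-miR-34b and rno-miR-34c.

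After scaling, rno-miR-34a was somewhat above its sham control level in IR at 24 h and 48 h and was within the spread of the arrays at the other times. At 24 h its log2 scaled signal was 7.13 to 7.45 (median 7.37) on the IR arrays and 6.68 to 7.22 (median 6.91) on the sham control arrays, and 5 of the 6 IR arrays exceeded all sham control arrays. At 48 h it was 7.08 to 7.33 (median 7.31) in IR and 6.91 to 7.05 (median 6.96) in sham control. There the groups did not overlap, as for 15.1% of the 159 tested miRs.

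Elsewhere the groups overlapped. At 0 h the range was 7.21 to 7.44 (median 7.37) in IR and 6.90 to 7.34 (median 7.22) in sham control, with 3 IR arrays above all sham control arrays. At 2 h it was 7.21 to 7.41 (median 7.33) in IR against 6.96 to 7.41 (median 7.14) in sham control, with no IR array above all of them. At 7d it was 6.78 to 7.18 (median 6.93) in IR against 6.74 to 7.16 (median 6.88) in sham control, and the arrays of both groups were mixed.

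**Figure D2:**
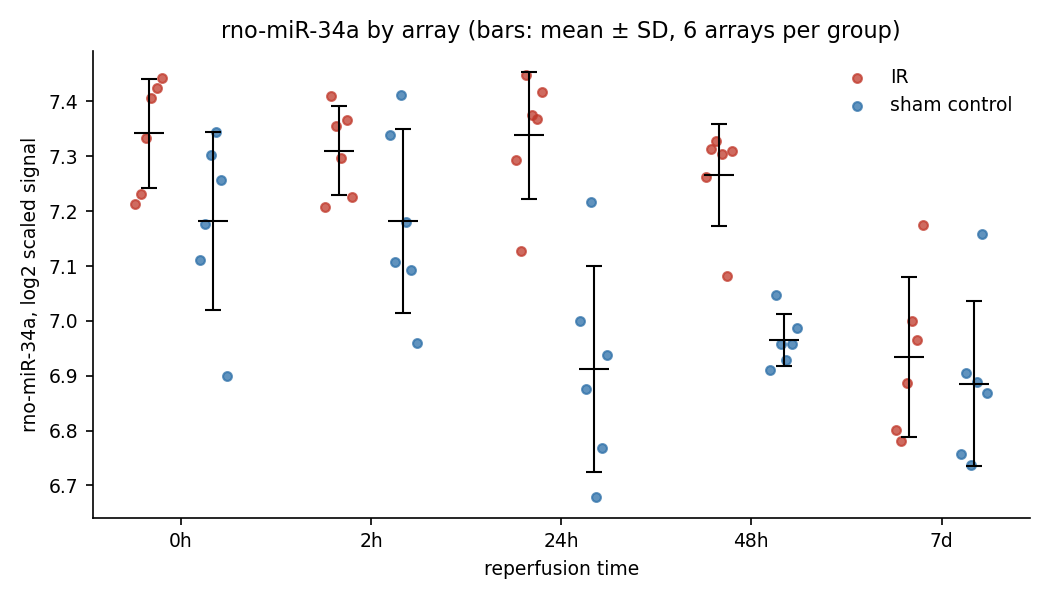
Log2 scaled signal of rno-miR-34a by reperfusion time, with 1 point per array, red for IR and blue for sham control. Black bars are the mean ± SD of 6 arrays. The groups are apart at 48 h, 1 IR array overlaps the sham control arrays at 24 h, and the IR arrays fall to the sham control range at 7d.

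The mean log2 difference (IR minus sham control) was 0.43 at 24 h (SE 0.079, adjusted p = 1.5e-05 by limma), which is 1.34-fold with a 95% interval of 1.20 to 1.50-fold. At 48 h it was 0.30 (SE 0.079, adjusted p = 0.00126), or 1.23-fold with a 95% interval of 1.10 to 1.38-fold. Both differences passed the adjusted p, as did those of 60.4% of the 159 tested miRs at 24 h and 54.7% at 48 h, and both were larger than the SD of either group. At 0 h the difference was 0.16 (adjusted p = 0.195, 12.6% of tested miRs passed), at 2 h it was 0.13 (adjusted p = 0.548, 7.55% passed) and at 7d it was 0.05 (adjusted p = 0.613, 59.7% passed). The intervals at these times reached 1.25-fold, 1.22-fold and 1.15-fold at their upper end and 1.00-fold, 0.979-fold and 0.927-fold at their lower end. An exact permutation test (two-sided, 6 arrays against 6) gave 0.00433 at 24 h and 0.00216, the smallest p it allows, at 48 h. Both became 0.0108 after adjustment over the 5 time points. The exact p was 0.0584, 0.119 and 0.569 at 0 h, 2 h and 7d.

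By the study's thresholds, an absolute fold change of at least 2 together with an adjusted p of at most 0.05, 0 of the 3 members were called at any time point. Among all 159 tested miRs, 6.92% were called at 0 h, 5.03% at 2 h, 18.2% at 24 h, 13.8% at 48 h and, at 7d, 18.2%. Without the fold change threshold, rno-miR-34a was called at 24 h and 48 h.

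The size and the sign of this difference depended on how the arrays were put on a common scale. The tested miRs as a whole had median log2 differences of -0.13, -0.15 and -0.15 from 24 h to 7d. rno-miR-34a lay 0.55, 0.45 and 0.20 above these medians. The share of tested miRs with a lower difference than rno-miR-34a was 71.7% at 0 h, 78.6% at 2 h, 77.4% at 24 h, 81.1% at 48 h and 64.8% at 7d. Scaled to the 75th percentile over all 350 miRs, the medians were -0.42 at 24 h and -0.29 at 48 h, and rno-miR-34a differed by 0.11 (adjusted p = 0.282) and 0.15 (adjusted p = 0.183). Without normalization its difference was -1.73 at 24 h and -0.89 at 48 h, with medians of -2.07 and -1.29. In the authors' normalized table it was 0.07 (adjusted p = 0.49) at 24 h and 0.17 (adjusted p = 0.125) at 48 h, with medians of -0.50 and -0.29. Set against the median of the 57 miRs detected on all arrays, rno-miR-34a lay 0.43 higher at 24 h and 0.40 higher at 48 h in each of these 4 scalings, because each scaling subtracts 1 constant per array. Quantile normalization, which changes the shape of each array's distribution, left 0.23 and 0.21 above that median.

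The slide and the brightness of the arrays moved with the same difference. Only 2 of the 9 slides held both treatments, and at different time points, so that values with the slide as a fixed block rest on links through these 2 slides and not on comparisons of both treatments of a time point within a slide. With the slide as a fixed block the difference was 0.08 at 24 h (adjusted p = 0.645) and -0.08 at 48 h (adjusted p = 0.595), whereas at 7d rno-miR-34a was lower in IR, with a difference of -0.34 (adjusted p = 0.00591). With the slide as a random block (consensus correlation 0.234) it was 0.37 at 24 h (adjusted p = 0.00031) and 0.21 at 48 h (adjusted p = 0.0293). With array brightness as a covariate it was 0.16 at 24 h (adjusted p = 0.264) and 0.15 at 48 h (adjusted p = 0.12). Within the 3 scans, the difference of means was 0.27, 0.51 and 0.48 at 24 h and 0.31, 0.37 and 0.22 at 48 h, with 1 to 3 arrays per group in each. At 0 h it was 0.06, 0.11 and 0.54, at 2 h 0.09, 0.03 and 0.27, and at 7d -0.04, 0.13 and 0.06.

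**Figure D3:**
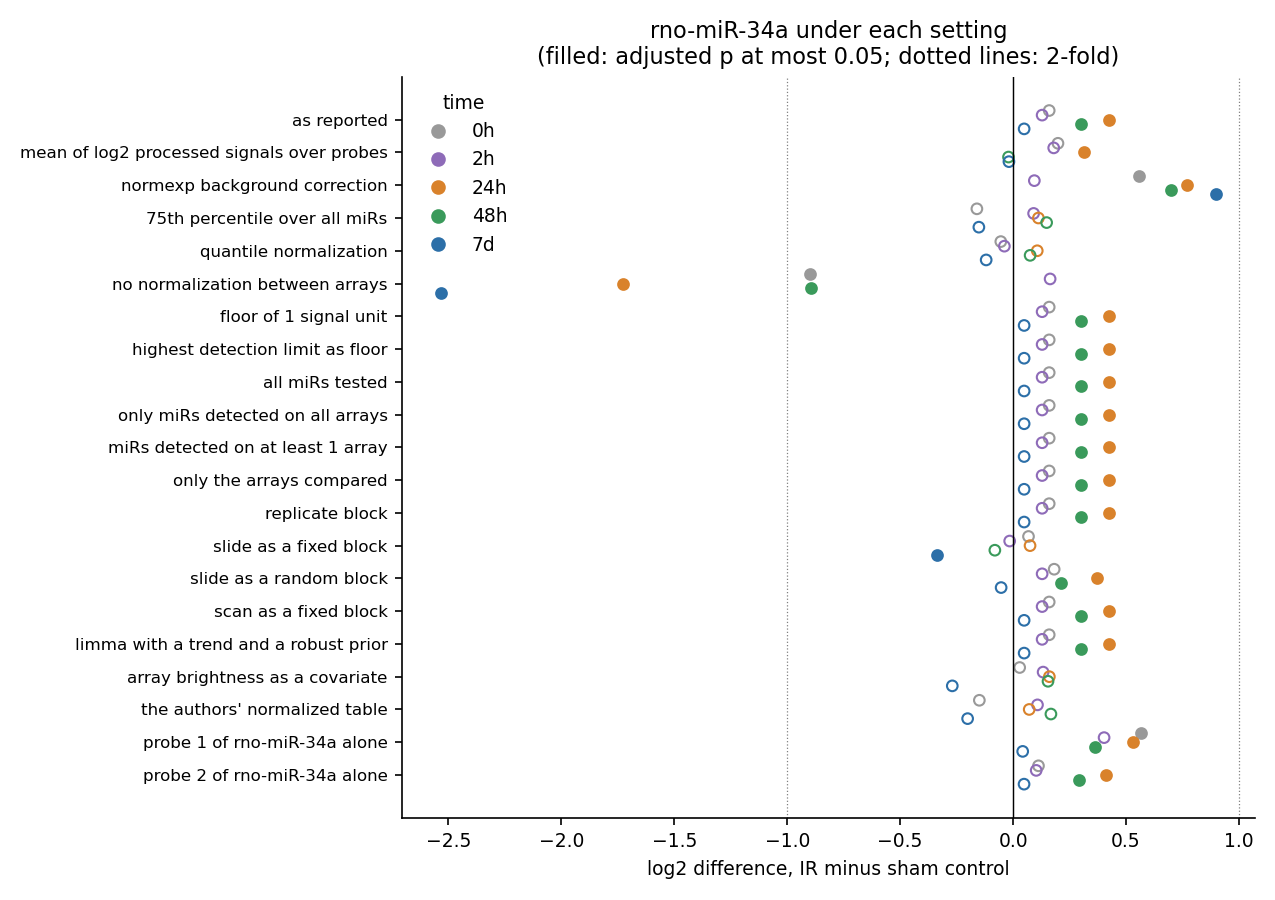
Log2 difference of rno-miR-34a (IR minus sham control, horizontal axis) at each time point, shown by color, under each setting of the processing (1 line per setting). Filled points have an adjusted p of at most 0.05, and dotted lines mark 2-fold. Without normalization the differences reach -1.73 at 24 h and -2.53 at 7d, whereas they stay between -0.34 and 0.90 under the other settings.

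Ranks within an array do not depend on a constant scaling. Among the 57 miRs detected on all arrays, ordered by signal from the brightest, rno-miR-34a took places 47 to 53 on the IR arrays and 51 to 55 on the sham control arrays at 24 h (means 51 and 53.2). The mean was 2.17 places higher in IR at 24 h (two-sided exact permutation p of 0.0909, or 0.216 after adjustment over 5 time points). It was 1.67 places higher at 48 h (p = 0.13, adjusted p = 0.216 by the exact test) and 1.50 places lower at 7d (p = 0.106, adjusted p = 0.216 by the exact test). By rank, no time point passed the exact test.

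The difference between IR and sham control was itself compared between time points. The effect at 24 h was 0.30 larger than at 2 h (adjusted p = 0.044, passed by 23.9% of tested miRs), and that at 7d was 0.38 smaller than at 24 h, or -0.38 on the log2 scale (adjusted p = 0.0457, passed by 3.14%). The other 8 of the 10 pairs of time points had adjusted p values from 0.161 to 0.988. The F test that all 5 effects are equal gave an adjusted p of 0.0331, a threshold that 39% of tested miRs passed. These tests share arrays and were close to the threshold. With 1 array omitted, the F test missed it for 8 of the 60 arrays (adjusted p up to 0.073), the pair of 24 h and 2 h for 14 (up to 0.0972) and the pair of 7d and 24 h for 30 (up to 0.138). Of 20 other settings, 11 made the pair of 24 h and 2 h miss the threshold and 2 turned its sign. For the pair of 7d and 24 h, 10 made it miss the threshold and 1 turned its sign.

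The means of both treatments moved over time. In sham control, the mean log2 scaled signal of rno-miR-34a was 7.18 ± 0.16 at 0 h, 7.18 ± 0.17 at 2 h, 6.91 ± 0.19 at 24 h, 6.96 ± 0.05 at 48 h and 6.89 ± 0.15 at 7d (SD, n = 6). In IR it was 7.34 ± 0.10 at 0 h, 7.31 ± 0.08 at 2 h, 7.34 ± 0.12 at 24 h, 7.27 ± 0.09 at 48 h and 6.93 ± 0.15 at 7d (SD, n = 6). The sham control means were thus lower from 24 h on, whereas the IR mean was lower at 7d.

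The F test over the sham control time course gave an adjusted p of 0.0107 (5.66% of tested miRs passed). Against sham control at 0 h, the 7d group was lower, with a difference of -0.30 (adjusted p = 0.0279, 10.1% passed), while the 24 h group (-0.27, adjusted p = 0.0888) and the 48 h group (-0.22, adjusted p = 0.189) missed the threshold. Against IR at 0 h, IR at 7d was lower, with a difference of -0.41 (adjusted p = 5.05e-05, 36.5% passed), and the other times had adjusted p values from 0.515 to 0.985. With the slide as a fixed block the sham control F test had an adjusted p of 0.984, and sham control at 7d differed from 0 h by 0.01.

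The 10 groups spanned 0.46 on the log2 scale from highest to lowest, or 1.37-fold. In descending order of their means they were IR 0 h, IR 24 h, IR 2 h, IR 48 h, sham control 0 h, sham control 2 h, sham control 48 h, IR 7d, sham control 24 h and sham control 7d. Of the 9 pairs of neighbors in this order, 8 differed by less than their pooled SD. The exception was the step of 0.22 from sham control at 2 h to sham control at 48 h (pooled SD 0.12, two-sided exact permutation p of 0.00649, or 0.0584 after adjustment over the 9 pairs). No step in this order passed the exact test after adjustment. Because the groups were sorted by these same means and only neighbors were compared, the steps cannot show whether the groups form sets.

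The 2 probes of rno-miR-34a, which cover 19 and 20 bases, were not equally bright. The shorter probe gave a median of 20.1 signal units per array (2.99 to 53.2) and 11.5% of the total, and the longer probe gave 151 units (20.6 to 306). By the longer probe alone the difference was 0.41 at 24 h (adjusted p = 0.000107) and 0.29 at 48 h (adjusted p = 0.00465). By the shorter probe alone it was 0.53 at 24 h (adjusted p = 0.00172) and 0.36 at 48 h (adjusted p = 0.0332). Both probes therefore had the same direction at these times. At 0 h they differed, with 0.57 (adjusted p = 0.00357) by the shorter and 0.11 (adjusted p = 0.501) by the longer probe.

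rno-miR-34b and rno-miR-34c, the members of the shared transcript, were at the limit of the arrays. rno-miR-34b was detected on 6 of 60 arrays, all of them sham control. Its detected total signals were 5.35 to 11.5 units, while those on the arrays without detection were -2.54 to 12.2 units. rno-miR-34c was detected on 3 of 60 arrays, also all sham control, at 6.67 to 7.13 units, and gave -4.27 to 7.72 units elsewhere. The signals of both members thus overlapped between arrays with and without detection.

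All of these detections were on arrays of the third scan, which held 8 sham control and 8 IR arrays. They lay on 2 slides that held only sham control arrays, and the 8 IR arrays of this scan lay on another slide. Slide and treatment therefore cannot be told apart in these detections. For rno-miR-34b they were sham control replicate 6 at 0 h, 2 h and 24 h, replicate 5 at 48 h, and replicates 5 and 6 at 7d. For rno-miR-34c they were sham control replicate 6 at 0 h, 24 h and 7d. The part of scan and slide in these detections was not tested.

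Over all IR arrays the total signal of rno-miR-34b was -2.54 to 11.6 units (median 1.94), against -0.634 to 12.2 units (median 6.00) over all sham control arrays. That of rno-miR-34c was -4.27 to 7.25 units (median 0.73) in IR and -3.69 to 7.72 units (median 2.73) in sham control. Over all times together, the signals of both treatments overlapped over most of their range. At 24 h rno-miR-34b was at most 3.17 units in IR and at least 3.31 units in sham control. At 7d these limits were 3.84 and 5.82 units, so its groups did not overlap at either time. On this scale 81.1% and 95.6% of the tested miRs did not overlap at these times. The IR arrays were also the dimmer ones, except at 2 h.

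After scaling, rno-miR-34b stayed at the floor of 6.20 signal units on 55 of 60 arrays and rno-miR-34c on 59 of 60. None of the arrays that detected either member was among those above the floor. No fold change is therefore given for rno-miR-34b or rno-miR-34c. If they were tested all the same, with all 350 miRs or with the 242 miRs detected on at least 1 array, 0 of the 20 comparisons were called. In 2 of these 20, both rno-miR-34b at 48 h, the difference of 0.23 passed the adjusted p (0.0202 and 0.0194), on IR arrays that did not detect it. No pair of members was detected in both groups at any of the 5 time points, so that no ratio between members within an array was computed.

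The relatives were not measurable either. The passenger strand rno-miR-34c* and rno-miR-449a, a miR of ciliated cells with the same seed, were detected on 0 of 60 arrays, with total signals of at most 2.00 and 3.32 units.

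The miRs whose group means were most like those of rno-miR-34a were sought among the other 56 miRs detected on all arrays, by Pearson correlation over the 10 group means. The closest was rno-miR-183 (r = 0.84), a miR of the sensory cluster expressed in photoreceptors. It was followed by rno-miR-324-3p (r = 0.82), rno-miR-16 (r = 0.81), a regulator of cell cycle genes, rno-miR-151 (r = 0.76) and rno-let-7b (r = 0.74). Over all 56 the median r was 0.08, with a range from -0.80 to 0.84. Over the 60 single arrays, r was 0.71, 0.56, 0.22, 0.65 and 0.54 for the 5 named miRs in that order, lowest for rno-miR-16. Group means share the scaling of their arrays, and r is given as a description only.

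rno-miR-183 was higher in IR by 0.40 at 24 h (adjusted p = 0.000245), by 0.25 at 48 h (adjusted p = 0.0203) and, unlike rno-miR-34a, by 0.31 at 7d (adjusted p = 0.00251). rno-miR-324-3p differed by 0.67 at 24 h (adjusted p = 9.05e-05) and by 0.45 at 7d (adjusted p = 0.00612). rno-miR-16, by contrast, did not pass at any time, with differences from -0.02 to 0.08. At 7d the differences of the 5 similar miRs (0.08 to 0.45) were all larger than the 0.05 of rno-miR-34a.

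**Figure D4:**
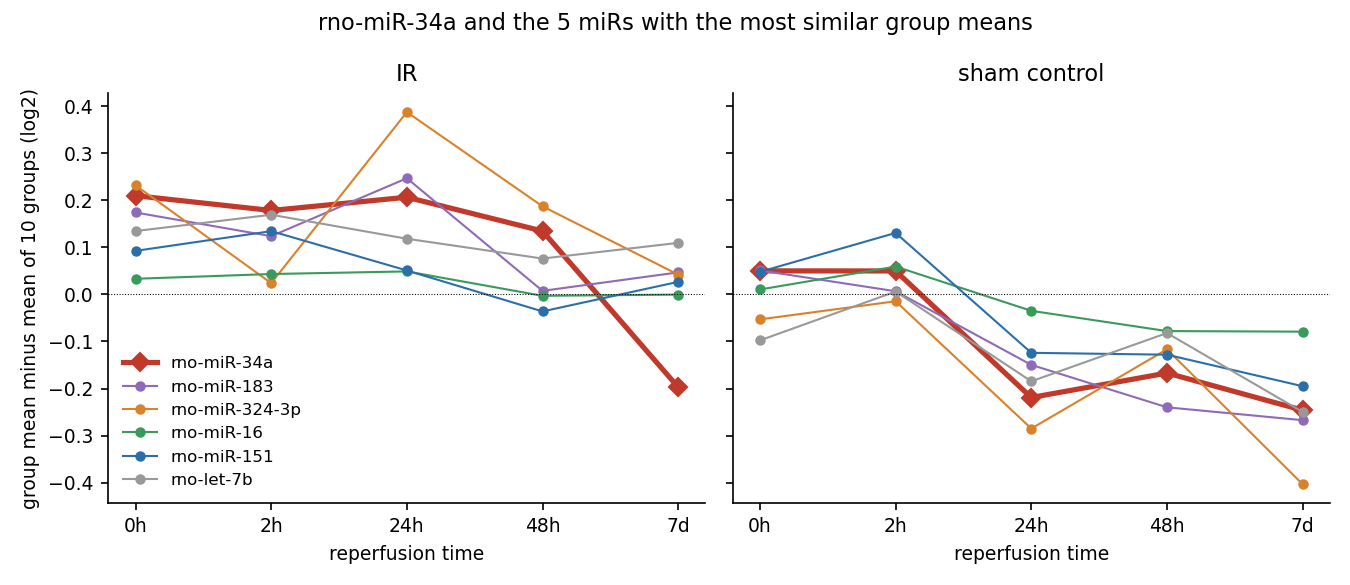
Group means of rno-miR-34a (red, bold) and of the 5 miRs with the most similar means, each minus its own mean over the 10 groups (log2, vertical axis), for IR (left) and sham control (right) by reperfusion time. rno-miR-34a falls between 48 h and 7d in IR, where the 5 other miRs do not fall by as much.

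Other miRs tied to p53 were described by lists. The first held 15 miRs that p53 induces or helps to mature, of which 14 were on the array and 6 were tested. The second held 5 miRs that target the p53 mRNA, with 4 tested, and the third held 4 miRs that act on regulators of p53, with 3 tested. Of these 13 tested miRs, 0 were called at each of the 5 time points. Over all 159 tested miRs the shares called were 6.92%, 5.03%, 18.2%, 13.8% and 18.2% from 0 h to 7d. Without the fold change threshold, 0 of 13 passed at 0 h and 2 h, where 12.6% and 7.55% of all tested miRs passed. At 24 h 3 of the 13 rose and 3 fell, at 48 h 1 rose and 4 fell, and at 7d 1 rose and 6 fell. Of all 159 tested miRs, 39 rose and 57 fell at 24 h (60.4% in all), 31 rose and 56 fell at 48 h (54.7%) and 32 rose and 63 fell at 7d (59.7%). With only 13 tested miRs, the counts of the lists cannot show whether they differ from this background. The median log2 difference of the p53-induced list was 0.09, -0.04, 0.02, -0.08 and 0.03 from 0 h to 7d, beside medians of 0.02, -0.01, -0.13, -0.15 and -0.15 over all 159 tested miRs. For the list that targets p53 the medians were -0.11, -0.04, -0.22, -0.13 and -0.27, and for the list on regulators of p53 they were 0.08, 0.01, -0.19, -0.03 and -0.40.

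Some members of these lists are named here after their values were seen. rno-miR-103 and rno-miR-107, both of the p53-induced list, fell in IR at 48 h, with differences of -0.40 (adjusted p = 5.56e-06) and -0.23 (adjusted p = 0.00074). Both also fell at 7d, with differences of -0.42 (adjusted p = 1.45e-06) and -0.23 (adjusted p = 0.000665). At 24 h rno-miR-103 fell (-0.29, adjusted p = 0.000558), while rno-miR-107 missed the threshold (-0.11, adjusted p = 0.0843). rno-miR-22, a miR that p53 induces and that lowers the cell cycle inhibitor p21, rose by 0.33 at 24 h (adjusted p = 0.00496) and by 0.35 at 7d (adjusted p = 0.00217). rno-miR-125b-5p, which binds the p53 mRNA, fell at 24 h, with a difference of -0.42 (adjusted p = 0.000249). It also fell at 48 h (-0.47, adjusted p = 4.82e-05) and at 7d (-0.43, adjusted p = 0.000168). Of the same list, rno-miR-30d rose at 24 h, with a difference of 0.28 (adjusted p = 0.0473). rno-miR-33 was detected on 6 of 6 arrays only in sham control at 7d and entered the test through that group. Its fitted differences were -0.22 at 24 h (adjusted p = 0.0288) and -0.35 at 7d (adjusted p = 0.000608). At both times 0 of 6 IR arrays detected it, and its IR values were set at the floor. The counts of falls in the lists at 24 h and 7d include it. rno-miR-25 passed at no time. The 3 miRs of the miR-29 family, which lower inhibitors of p53, did not move together. rno-miR-29a rose by 0.33 at 24 h (adjusted p = 0.000878), where rno-miR-29b (-0.22, adjusted p = 0.069) and rno-miR-29c (-0.19, adjusted p = 0.0946) missed the threshold. At 7d rno-miR-29b and rno-miR-29c fell, with differences of -0.45 (adjusted p = 0.00033) and -0.40 (adjusted p = 0.000608), while rno-miR-29a differed by 0.15 (adjusted p = 0.111). rno-miR-34a was thus not alone in passing the adjusted p without reaching 2-fold.

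**Figure D5:**
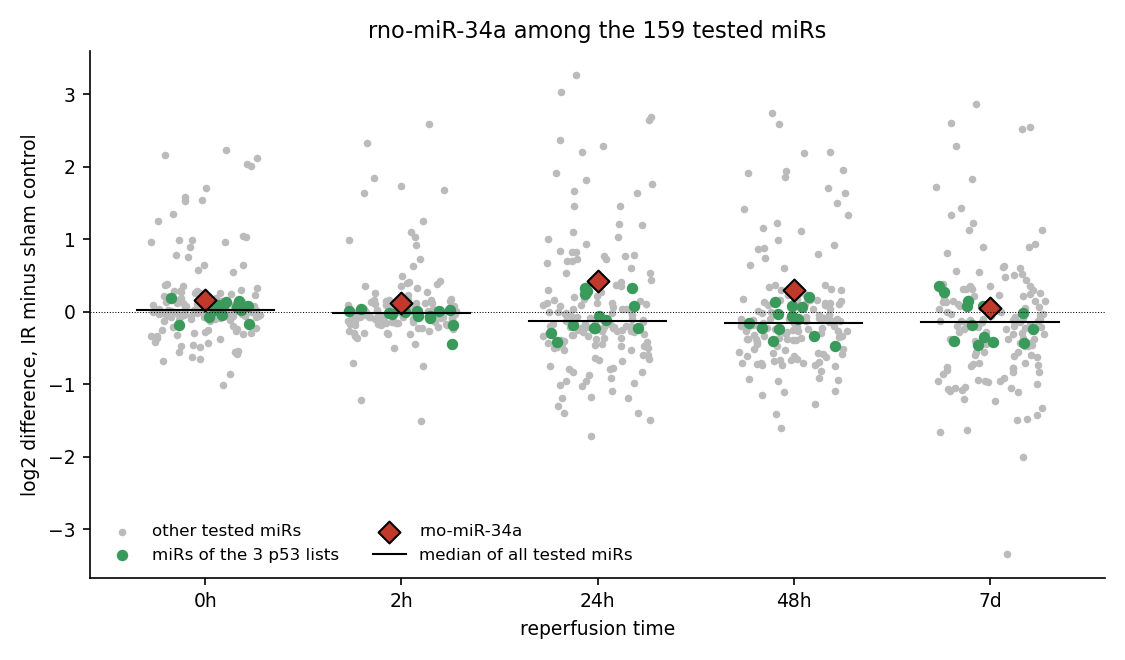
Log2 difference (IR minus sham control, vertical axis) of the 159 tested miRs by reperfusion time. Grey points are miRs, green points the 13 tested miRs of the 3 p53 lists, red diamonds rno-miR-34a, and black lines the median of all tested miRs. rno-miR-34a lies above the median at each time, by 0.55 at 24 h, and within the bulk of the miRs.

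Markers of cell types were read on the same arrays. The 3 photoreceptor miRs that mark retina were each detected on all 60 arrays, and the 3 neuronal miRs on 57 to 60 arrays. The counts that follow are of miRs that passed the adjusted p, as 60.4%, 54.7% and 59.7% of all tested miRs did at 24 h, 48 h and 7d, more of them lower than higher in IR. Of the photoreceptor list, 1 rose at 24 h and at 7d, and 1 rose and 1 fell at 48 h. Of the neuronal list, 2 fell at 24 h and 1 each at 48 h and 7d. Of 3 pigment epithelium miRs, rno-miR-204 fell at 24 h, with a difference of -0.27 (adjusted p = 0.0264). rno-miR-184 was called lower at 7d (adjusted p = 0.00713), where 6 of 6 sham control arrays and 0 of 6 IR arrays detected it. In no other group was rno-miR-184 detected on all arrays, so it entered the test only through the sham control group of this comparison. Its fitted difference of -3.34 sets the IR arrays at the floor. The only endothelial miR that was tested, rno-miR-126, passed as lower at 24 h (-0.52, adjusted p = 0.00496). At that time 1 of 6 IR arrays and 6 of 6 sham control arrays detected it. Of 4 muscle miRs only 1 was tested, rno-miR-206, which was called higher in IR at all 5 times, by 2.04, 2.33, 1.91, 1.96 and 1.34 from 0 h to 7d (adjusted p from 8e-05 to 0.00577). The summed scaled signal of the list at 24 h was 136 to 279 units in IR against 44.4 to 73.4 units in sham control. The 6 measured miRs of blood cells and leukocytes summed to 37.6 to 116 units in IR and 11.2 to 32.6 units in sham control at 24 h, with 3 of the 6 detected on no array. At 48 h these sums were 29.7 to 112 and 19.1 to 31 units. rno-miR-223, which had the highest mean of this list in IR at 24 h, was detected there on only 1 of 6 arrays. rno-miR-150, the only member tested, was detected on 6 of 6 arrays only in sham control at 7d and entered the test through that group. At 24 h, 48 h and 7d it was detected on 0, 1 and 0 of 6 IR arrays. Its IR means there (2.91, 2.79 and 2.72) lay near the floor of 2.63. The fitted differences of -0.37 (adjusted p = 0.0853), -0.73 (adjusted p = 0.0013) and -0.96 (adjusted p = 3.5e-05) are therefore limited by the floor and by this selection. The part of other cells in the level of rno-miR-34a was not tested.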

How the data were processed

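Retinal miRs were measured on 60 Agilent rat miR arrays with 1 color (Cy3), 1 array per rat, in 10 groups of 6. Groups and replicate numbers came from the sample titles. The deposited intensity files were made by the authors with Agilent Feature Extraction 9.5.3.1, which subtracted background and summed probes into a total signal, without normalization between arrays. The authors also deposited log2 values of 219 features, made in GeneSpring with scaling to the 75% quantile. They equaled log2 of the total signal (at least 1 unit) minus 1 constant per array, and their column medians were -0.856 to -0.409. That table lists 2 of the 3 members and served as an alternative.

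Here, total signals were divided by the 75th percentile of the 57 miRs that every array detected, raised to a floor of 6.20 units (2.63 on the log2 scale) and taken to log2. The 159 miRs with 6 of 6 arrays detected in some group entered 1 fit with limma 3.58.1 (R 4.3.3) over 10 groups, with Benjamini-Hochberg adjustment per contrast. The study's methods name no test for miRs. The fit was also run on simulated data drawn with independent noise. These held no slide or brightness effects and cannot speak to them. No sample was left out, no pair of arrays was identical, and the number of arrays limits the precision. The members, the lists of p53-linked miRs and markers, and the tests were chosen with earlier results of these data known. Of list members, those called at a time point were to be named with values, and others were named after their values were seen. The 5 miRs nearest to rno-miR-34a were taken by correlation over group means. 4 listed miRs were not on the array. RefSeq sequences were matched for all 3 members. Alternatives covered signal summary, background, scaling, floor, tested miRs, blocks for replicate, slide and scan, brightness, test and single probes. Ranks, the IR time course and probe values for contrasts over time were added after seeing the data. Other steps used Python 3.11.15, scipy 1.17.1, pandas 2.3.3, numpy 2.4.6 and matplotlib 3.10.9.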

Additional observations from a re-analysis of the deposited data

Results flagged for a closer look

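In IR at 48 h, the lowest rno-miR-34a array (log2 scaled signal 7.08) lay apart from the other 5 arrays by more than Dixon's criterion for 6 samples allows, and it still lay above every sham control array of that time. It was the only such array among the 10 groups checked, and chance gives such a value in about 1 of 20 groups. The IR effect on rno-miR-34a differed between 24 h and 2 h by 0.30, and between 7d and 24 h by -0.38 (log2, limma). The cause of these differences was not tested.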

How the results depend on the processing

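The difference of rno-miR-34a between IR and sham control passed at 24 h and 48 h in every fit without 1 array, with log2 differences of 0.38 to 0.49 and 0.29 to 0.34 (0.10 to 0.19 at 0 h, 0.08 to 0.17 at 2 h and 0.00073 to 0.10 at 7d, none of which passed). It also passed at both times under other floors and sets of tested miRs, with only the arrays compared, scan as a fixed block, slide as a random block, another variance model, normexp correction, each probe alone and an exact permutation test. With normexp the median difference of the tested miRs was 0.87 at 24 h and 0.85 at 48 h. rno-miR-34a lay below these medians, at 0.77 and 0.70. It lay 0.67 and 0.70 above the medians of the 57 miRs detected on all arrays. Replicate numbers were no pairing by the labels, and of 30 pairs of same-numbered arrays 15 had deviations that correlated above 0.1 (-0.45 to 0.60) and 7 matched best. With the replicate number as a block the differences stayed at 0.43 (adjusted p = 1.68e-05) and 0.30 (adjusted p = 0.00126), and no call changed.

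Scaling and slide both moved these values. With the 75th percentile over all miRs the differences were -0.16 at 0 h, 0.11 at 24 h, 0.15 at 48 h and -0.15 at 7d. With quantile normalization they were -0.054, -0.039, 0.11, 0.075 and -0.12 from 0 h to 7d. Without normalization they were -0.90 at 0 h, -1.73 at 24 h, -0.89 at 48 h and -2.53 at 7d, so that 1 member was called at 24 h and 1 at 7d. Without a fold change threshold, 1 member was called at 24 h and 1 at 48 h. The authors' table gave -0.15 at 0 h, 0.071 at 24 h, 0.17 at 48 h and -0.20 at 7d. The mean of processed signals gave -0.020 at 48 h and -0.018 at 7d. normexp gave 0.56 at 0 h and 0.90 at 7d, both past the threshold, as did the shorter probe at 0 h (0.57). With the slide as a fixed block the values from 2 h to 7d were -0.015, 0.075, -0.081 and -0.34, and as a random block -0.053 at 7d. Brightness as a covariate gave 0.16, 0.15 and -0.27 from 24 h to 7d. By rank, IR was 2.17 and 1.67 places higher at 24 h and 48 h, without passing, and -1.50 places at 7d. Apart from the rescaling itself, the cause of these changes was not tested.

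The adjusted p of equal IR effects was 0.0588 with the mean of processed signals, 0.171 with normexp, 0.0949 with the percentile over all miRs, 0.558 with quantile normalization, and 0.164 and 0.0628 with the shorter and the longer probe. Without 1 array it was 0.00752 to 0.073, and it missed the threshold without IR 24 h replicate 3 or 6, IR 7d replicate 1 or 2, sham control 24 h replicate 2, 4 or 5, or sham control 7d replicate 5 (0.0501 to 0.073). The effect at 24 h minus 2 h was -1.89 without normalization and -0.037 in the authors' table, and the effect at 7d minus 24 h was 0.13 with normexp.

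The adjusted p of the sham control time course was 0.585 with the mean of processed signals, 0.358 with normexp, 0.0536 with the percentile over all miRs, 0.105 with quantile normalization, 0.313 without normalization, 0.984 and 0.228 with the slide as a fixed and a random block, 0.051 with brightness, 0.0613 in the authors' table and 0.603 with the shorter probe. It was 0.0012 to 0.0353 without 1 array. Sham control at 7d minus 0 h was 0.045 without normalization, 0.013 with the slide as a fixed block and 0.18 with the shorter probe. It missed the threshold without sham control 0 h replicate 1, 3, 4 or 5 or 7d replicate 3 or 6 (adjusted p up to 0.0955). IR at 7d minus 0 h was 0.10 with normexp.

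Over all miRs, 11, 8, 29, 22 and 29 were called from 0 h to 7d, against 84, 5, 139, 121 and 151 without normalization, 41, 2, 63, 63 and 95 with normexp, 2, 2, 6, 4 and 4 with only the miRs detected on all arrays, and 10, 8, 14, 15 and 5 with brightness. Ratios between members were not run because no pair was detected in both groups.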
